A study of Homo sapiens with 4 samples.

Results

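Messenger RNA levels of 10 BCL2 family genes were compared in human myeloma cells with and without a knockdown of protein kinase C alpha (PKCα). The genes were chosen by symbol for their roles in survival and death, with earlier results of these data known. They were MCL1, BCL2, BCL2L1, BCL2L11, PMAIP1, BBC3, BID, BAD, BAX and BAK1. All 10 were listed among the 22187 genes of the series, and all 10 passed the filter on low counts. KMS18 and KMS28BM, written K18 and K28BM in the labels, are multiple myeloma lines labelled as bone marrow plasma cells with the t(4;14) genotype. Each line gave 1 control library, with a construct labelled Luc, and 1 library with a stable PKCα knockdown. The labels name neither the knockdown reagent nor whether a line was 1 clone or a pool. The design asks how these cells differ when PKCα is lowered.

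BCL2 family proteins decide whether the outer mitochondrial membrane is opened, the step that commits a cell to apoptosis. MCL1, BCL2 and BCL2L1 (BCL-XL) hold the membrane closed, the effectors BAX and BAK1 form the pores, and the BH3-only proteins bind the protective members or engage the effectors. Plasma cells and many myelomas depend on MCL1, and the family is a drug target in this disease.

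The libraries held between 37940949 and 39507281 expected counts. PRKCA, the gene that encodes PKCα, was at 7.46 FPKM in the KMS18 control and 1.47 in the knockdown, and at 10.9 and 2.43 in KMS28BM. FPKM divides a gene's fragment count by its listed length and by the library's size. All 9 plasma cell markers reached 1 FPKM in every library, with summed levels between 6599 and 8661 FPKM, most of it from JCHAIN. Without JCHAIN, the other 8 summed to 1989 FPKM in the KMS18 control and 1224 in the knockdown, against 1972 and 1173 in KMS28BM. In the edgeR test described below, 6 of the 9 fell under the knockdown (XBP1, MZB1, SLAMF7, SDC1, TNFRSF17 and IRF4), CD38 rose, and JCHAIN and PRDM1 were not called. Over all genes in that test, 5.25% were called lower and 3.57% higher. Of 22 markers of other blood, stromal and endothelial cells, 3 reached 1 FPKM in any library. These were the B cell genes CR2 and PAX5 and the T cell gene CD3E, which was at 7.32 and 20.9 FPKM in KMS18 control and knockdown and at 1.0 and 3.27 in KMS28BM. The other T cell markers CD3D, CD3G and CD2 were at or near 0, with highest levels of 0.22, 0.40 and 0.12 FPKM. The part of CD3E and of the plasma cell markers in the results below was not tested. In bulk RNA, fewer cells of a type and less RNA per cell cannot be told apart.

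Under the knockdown, the protective gene MCL1 and the BH3-only gene PMAIP1 fell in both lines, and the BH3-only gene BCL2L11 rose in both. The other 7 genes did not pass the test. The falls of MCL1 and PMAIP1 went with falls of 6 of the 9 plasma cell markers in the same libraries. The test was edgeR's quasi-likelihood test across all genes with the cell line as a block, and a gene was called at a Benjamini-Hochberg adjusted p under 0.05. Of all 14870 genes tested, 8.82% were called, 3.57% higher and 5.25% lower, against 1 higher and 2 lower of the 10 family genes. The median log2 difference of the 10 was -0.02, beside 0.02 over all genes. By counts, 8 of the 10 moved in the same direction in both lines, and BCL2L1 and BAX did not. Over all genes tested that share was 69.4%. With 1 library for each construct of a line, no difference inside 1 line can be checked against replicates. The 2 lines are the only replication. A p-value weighs the difference common to the lines against a spread, estimated from their disagreement and from the other genes.

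**Figure D1:**
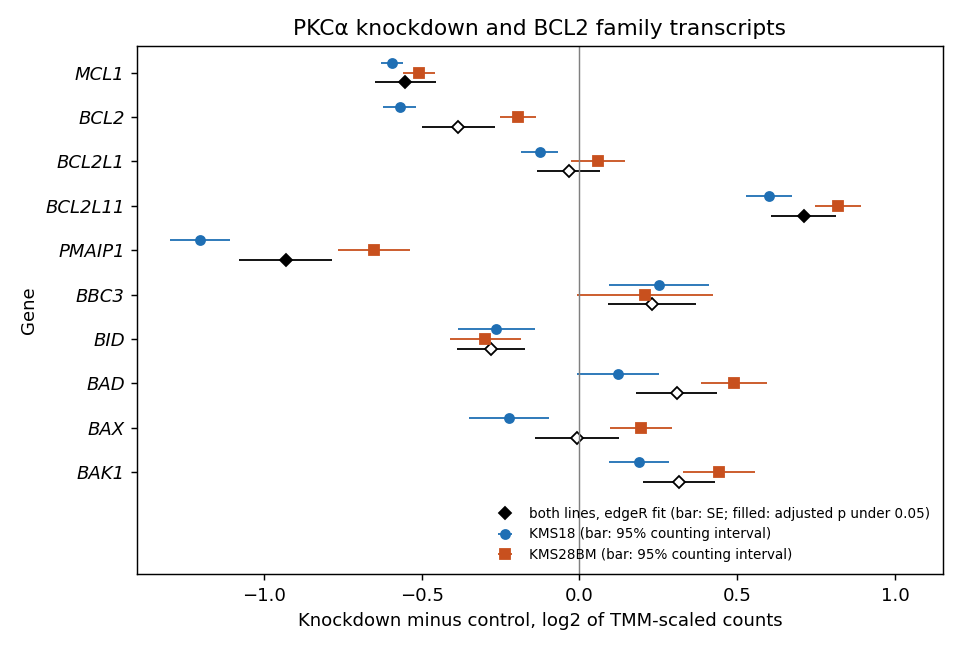
Log2 differences, knockdown minus control, of the 10 family genes over both lines from edgeR (diamonds, bars are standard errors) and in each line alone (bars are 95% counting intervals). MCL1 and PMAIP1 lie below 0 and BCL2L11 lies above 0 in both lines, and these 3 passed the test.

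Sequences are shown for the 3 genes that passed. For MCL1 the stretch is a part of the 3′ untranslated region, for BCL2L11 and PMAIP1 it is the promoter. The MCL1 stretch (GENCODE 29, GRCh38, chr1:150576039-150576067, minus strand) lies in the transcripts MCL1-202 and MCL1-204. Its capitals mark AGTCTAA, 1 of a pair of short sequences that an earlier search on these data found in the transcripts of genes that fell. The promoter of BCL2L11 (RefSeq, GRCh38.p14, chr2:111120664-111120913, plus strand) is 250 bases long. It ends at the base before the RefSeq start of transcription used here. That stretch lies inside the gene as listed in GENCODE 29, which begins at 111119378. Its capitals mark GTAAACA, letters that forkhead factors such as FOXO3 are known to bind, 223 to 217 bases before the start. The promoter of PMAIP1 (chr18:59899746-59899947, plus strand, same source) is shown over 202 bases. Its capitals mark ACGTCA, the reverse complement of TGACGT, which is the half-site bound by factors of the CREB and ATF family. They lie 56 to 51 bases before the RefSeq start. In GENCODE 29 the gene begins earlier, at 59899948, directly after the printed stretch.
MCL1 3′ stretch: aaaagcaggctAGTCTAAccatggtgcta
BCL2L11 promoter: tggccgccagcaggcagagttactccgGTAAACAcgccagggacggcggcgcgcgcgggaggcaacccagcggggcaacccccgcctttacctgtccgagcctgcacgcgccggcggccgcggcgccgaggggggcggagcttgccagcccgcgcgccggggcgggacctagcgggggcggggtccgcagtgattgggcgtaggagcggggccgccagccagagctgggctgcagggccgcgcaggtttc
PMAIP1 promoter: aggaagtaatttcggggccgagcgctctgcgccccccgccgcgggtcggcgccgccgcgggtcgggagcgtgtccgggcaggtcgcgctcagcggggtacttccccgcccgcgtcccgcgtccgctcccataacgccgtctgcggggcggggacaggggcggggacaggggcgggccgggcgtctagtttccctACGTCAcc

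These motifs were chosen after the promoters had been read, on both strands, and a match is not a binding site. Of 35116 RefSeq promoters of 250 bases, GTAAACA was in 2.98% and TGACGT in 7.10%. Among the 9 family genes with an entry, GTAAACA was in the promoter of BCL2L11 alone, and TGACGT was in those of PMAIP1 and BAD. The GC box GGGCGG, in 42.6% of all promoters, was found at 3 positions in BCL2L11 and 4 in PMAIP1. It was also found in BAK1, BAD, BAX and BID, which were not called, and not in BCL2, BCL2L1 or BBC3. The E-box CACGTG, in 6.34% of all promoters, was found at 4 positions in BAX, and also in BBC3 and BID. Both printed promoters were rich in G and C, at 76.8% in BCL2L11 and 76.2% in the part of PMAIP1 shown. The median over all promoters was 58.0%. FOXO3 itself was at 44.4 and 37.1 FPKM in KMS18 control and knockdown and at 31.4 and 23.7 in KMS28BM, with an edgeR log2 difference of -0.41 and an adjusted p of 0.0542.

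Of the 10 family genes, MCL1 alone held AGTCTAA or CAGTCTA in an annotated transcript. Of 13964 tested genes with a matched transcript, 27.1% held either sequence. The share was 54.9% of 768 genes that fell and 19.8% of 514 genes that rose, but the sequences had been picked for being frequent in genes that fell, so these shares are no independent evidence. PMAIP1, which also fell, held neither. PRKCA, the target of the knockdown, held both. Whether the sequences had a part in the fall of MCL1 or of other genes was not tested.

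MCL1 (chromosome 1, 150574551 to 150579738, minus strand; positions here and below are from GENCODE 29 on GRCh38) encodes a short-lived protein that sequesters BH3-only proteins and BAK1. It was at 121 FPKM in the KMS18 control, 84.0 in the KMS18 knockdown, 51.2 in the KMS28BM control and 38.3 in the KMS28BM knockdown. Each knockdown library lay below its own control, but KMS18 with the knockdown still held more MCL1 than KMS28BM without it. The expected counts behind these levels were 17110, 11812, 7399 and 5444. Over both lines the edgeR log2 difference was -0.55 (SE 0.10, adjusted p = 0.0205). The log2 ratio of scaled counts was -0.59 in KMS18 (95% Poisson interval -0.63 to -0.56) and -0.51 in KMS28BM (-0.56 to -0.46), and the intervals nearly met. Poisson intervals cover counting error only.

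BCL2 (chromosome 18, 63123346 to 63320128, minus strand) is the founding protective member, the target of venetoclax. Its levels were 45.1 and 25.8 FPKM in KMS18 control and knockdown and 27.3 and 25.0 in KMS28BM. The KMS18 control stood apart, and the other 3 libraries lay close together. The edgeR log2 difference over both lines was -0.38 (SE 0.12, adjusted p = 0.0916), which did not pass. Within the lines the log2 ratio of scaled counts was -0.57 in KMS18 and -0.20 in KMS28BM.

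The listed gene length of BCL2 also moved in KMS18. It was 4258 bases in the control and 5228 in the knockdown, 970 bases longer, and 4915 and 4945 in KMS28BM. A counting program can list a length averaged over transcripts by their abundance, and the file lists 5 BCL2 transcripts. In GENCODE 29 they include BCL2-201 of 3209 bases, BCL2-203 of 5011 and BCL2-202 of 7461. On FPKM, which divides by this length, BCL2 in KMS18 differed by -0.79 on log2(FPKM + 1), a larger fall than by counts. Length in BCL2L11 changed by 320 bases in KMS18 and 22 in KMS28BM. Among the other 8 family genes the furthest change was -60.5 bases, for BAX in KMS28BM.

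BCL2L1 (chromosome 20, 31664452 to 31723989, minus strand) gives rise to BCL-XL. It was at 50.6 and 48.7 FPKM in KMS18 control and knockdown and at 21.6 and 23.5 in KMS28BM. The lines were far apart and the constructs close together within each. Its edgeR log2 difference under the knockdown was -0.03 (SE 0.10, adjusted p = 0.876), and its sign was positive on log2(FPKM + 1), at 0.03. In the KMS18 control BCL2L1 stood next to MCL1 in the order of levels, and in the KMS28BM control it was number 7 of the 10.

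**Figure D2:**
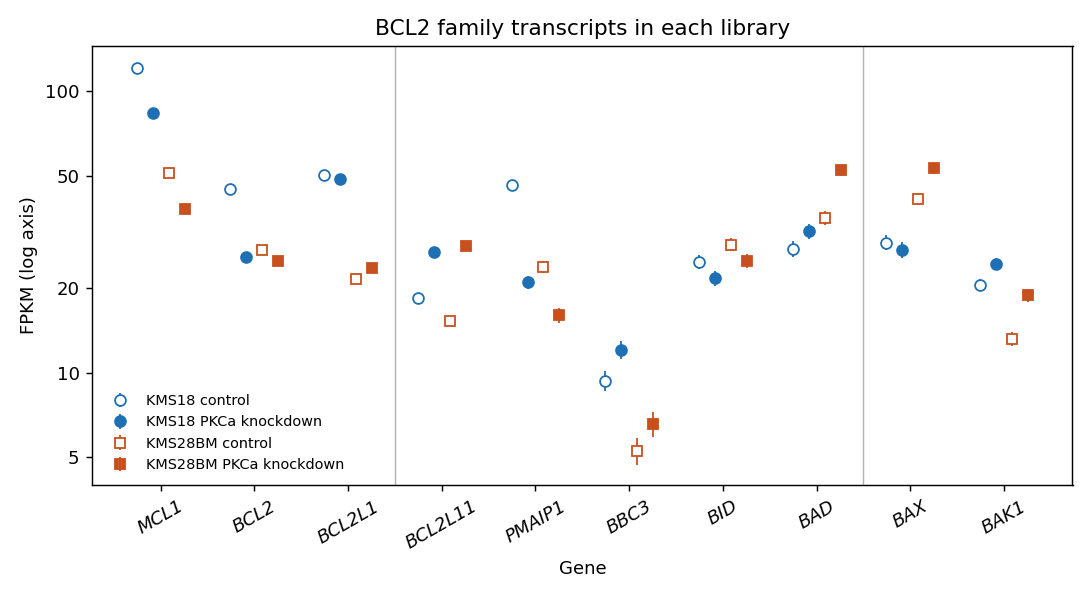
FPKM of the 10 family genes in each of the 4 libraries, on a log axis, with 95% Poisson intervals that cover counting error only. MCL1 is the highest gene in 3 libraries, and BAX and BAD lie above it in the KMS28BM knockdown.

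BCL2L11 (chromosome 2, 111119378 to 111168447, plus strand) encodes BIM, a BH3-only protein that binds all protective members and activates BAX and BAK1. It was at 18.4 FPKM in the KMS18 control, 26.8 in the KMS18 knockdown, 15.2 in the KMS28BM control and 28.2 in the KMS28BM knockdown. Both knockdown libraries lay above both controls. The counts were 2544, 4018, 2325 and 4290 in that order, and the edgeR log2 difference was 0.71 (SE 0.10, adjusted p = 0.0125). The log2 ratio of scaled counts was 0.60 in KMS18 (0.53 to 0.67) and 0.82 in KMS28BM (0.75 to 0.89). These counting intervals do not overlap. The difference between the lines was not tested, for want of replicates.

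PMAIP1 (chromosome 18, 59899948 to 59904306, plus strand) encodes NOXA, a BH3-only protein that binds MCL1 and is induced by ATF4. It was at 46.6 FPKM in the KMS18 control, 21.0 in the KMS18 knockdown, 23.7 in the KMS28BM control and 16.0 in the KMS28BM knockdown. The KMS18 control was far above the other 3 libraries, which lay between 16.0 and 23.7. The edgeR log2 difference over both lines was -0.93 (SE 0.15, adjusted p = 0.0153). PMAIP1 in KMS18, at -1.12 on log2(FPKM + 1), was the only family gene past a size rule of an absolute log2 fold of 1 with 1 FPKM or more in 1 of the 2 libraries. In KMS28BM its difference was -0.54, and no family gene passed. Of all genes, 1.46% passed the size rule in KMS18 and 1.99% in KMS28BM.

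The 2 BH3-only genes called in opposite directions changed places. In KMS18, BCL2L11 stood at 0.395 of PMAIP1 by FPKM in the control and at 1.28 in the knockdown. In KMS28BM the same ratio was 0.642 and 1.76. PMAIP1 was the higher of the pair in both controls, and BCL2L11 in both knockdown libraries.

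BBC3, BID and BAD were not called under the knockdown. BBC3 (chromosome 19, 47220822 to 47232766, minus strand), which encodes the BH3-only protein PUMA, was the lowest family gene in all 4 libraries. It was at 9.38 and 12.0 FPKM in KMS18 control and knockdown and at 5.26 and 6.55 in KMS28BM (edgeR log2 difference 0.23, SE 0.14, adjusted p = 0.344). BID (chromosome 22, 17734138 to 17774770, minus strand), which caspase-8 cleaves to link death receptors to mitochondria, had the narrowest range of the family, from 21.6 to 28.5 FPKM. Its log2 difference was -0.28 (SE 0.11, edgeR adjusted p = 0.156). BAD (chromosome 11, 64269830 to 64284704, minus strand), a BH3-only protein held inactive by phosphorylation, was at 27.6 and 31.9 FPKM in KMS18, against 35.4 and 52.4 in KMS28BM. The KMS28BM knockdown stood above the other 3 libraries, and the test over both lines did not pass (log2 difference 0.31, SE 0.13, edgeR adjusted p = 0.186).

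Neither effector was called. BAX (chromosome 19, 48954815 to 48961798, plus strand) was at 28.97 and 27.3 FPKM in KMS18 control and knockdown and at 41.5 and 53.4 in KMS28BM. Its edgeR log2 difference over both lines was -0.01 (SE 0.13, adjusted p = 0.978), and its sign changed with the scaling, to 0.003 with median-of-ratios scaling. BAK1 (chromosome 6, 33572547 to 33580293, minus strand), the effector that MCL1 restrains, was at 20.6 and 24.4 FPKM in KMS18, against 13.2 and 18.8 in KMS28BM. It was the higher in each knockdown library, but the test did not pass (edgeR log2 difference 0.31, SE 0.11, adjusted p = 0.139).

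MCL1 was the most abundant family gene per length in 3 of the 4 libraries. In the KMS28BM knockdown BAX (53.4 FPKM) and BAD (52.4) came first, with overlapping counting intervals, and MCL1 came next. In the KMS18 control PMAIP1 and BCL2 did not differ beyond their intervals, nor BAX from BAD or BAD from BID. In the KMS18 knockdown BAX, BCL2L11, BCL2 and BAK1 formed a run of overlapping neighbours between 27.3 and 24.4 FPKM, and BID overlapped PMAIP1. In the KMS28BM control BID overlapped BCL2 and PMAIP1 overlapped BCL2L1, and in the KMS28BM knockdown BCL2 overlapped BID and BID overlapped BCL2L1. Across libraries MCL1 ranged most, with a highest level 3.17 times its lowest, and BID least, at 1.32 times.

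Summed over the family, the libraries held 393 and 323 FPKM in KMS18 control and knockdown and 263 and 287 in KMS28BM. The protective genes MCL1, BCL2 and BCL2L1 took 55.2% of the sum in the KMS18 control, 49.0% in the KMS18 knockdown, 38.1% in the KMS28BM control and 30.2% in the KMS28BM knockdown. The share was lower in the knockdown library of each line, and both KMS28BM libraries lay below both KMS18 libraries. The effectors took 12.6%, 16.0%, 20.8% and 25.1% in the same order, and the BH3-only genes took 32.2%, 35.0%, 41.1% and 44.6%. The summed level of the BH3-only genes was lower in the KMS18 knockdown (113 FPKM) than in its control (127). In KMS28BM it was higher in the knockdown (128) than in the control (108). Without MCL1 the protective share was 35.2%, 31.1%, 23.1% and 19.5%, in the same order of libraries. By scaled counts, which weight long transcripts more, it was 73.0%, 66.1%, 60.8% and 50.8%. These shares are of RNA, have no replicates and were not tested.

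**Figure D3:**
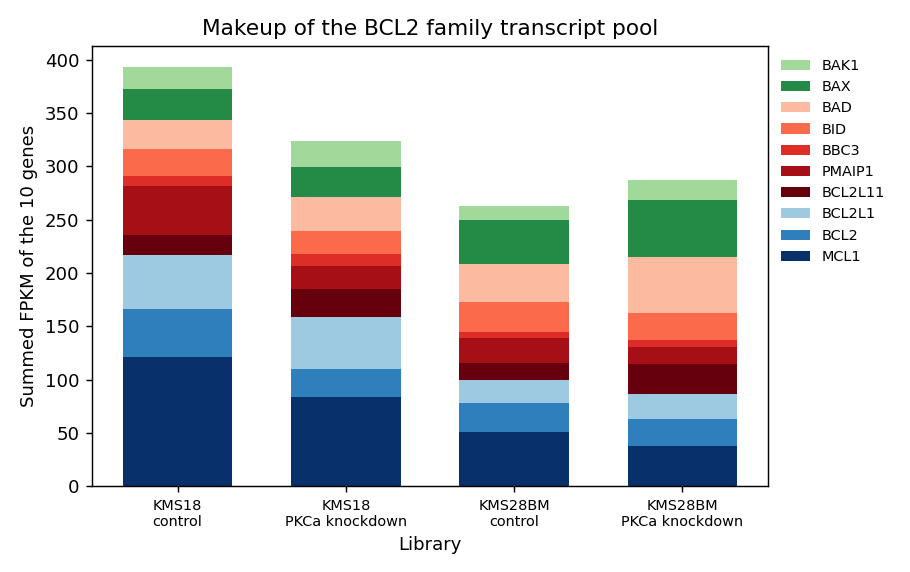
Stacked bars of the summed FPKM of the 10 family genes in each library, with protective genes in blue, BH3-only genes in red and effectors in green. The blue share of the bar is lower in the knockdown than in the control of each line, 55.2% and 49.0% in KMS18 and 38.1% and 30.2% in KMS28BM.

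The ratio of BCL2L11 to MCL1 was 0.152 in the KMS18 control and 0.319 in the KMS18 knockdown, and 0.297 and 0.736 in KMS28BM. Against the 3 protective genes summed, BCL2L11 was at 0.085, 0.169, 0.152 and 0.325 in the same order. The KMS18 knockdown and the KMS28BM control were close on both measures. The ratio of BAX to BAK1 was 1.41 and 1.12 in KMS18 and 3.15 and 2.84 in KMS28BM, so the effector pair differed mainly by line.

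More family genes were called between the lines than between the constructs. All 3 protective genes were higher in KMS18, and the effectors split, with BAK1 higher in KMS18 and BAX higher in KMS28BM. Of the 10 family genes, 6 were higher in KMS18 and 2 in KMS28BM in the same edgeR fit. Of all genes, 62.9% were called between the lines and 32.3% were higher in KMS18, which is the background for the 8 of 10 called here. Their median log2 difference, KMS28BM minus KMS18, was -0.50, beside -0.02 over all genes.

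MCL1 differed by -1.30 on the log2 scale between the lines (SE 0.10, edgeR adjusted p = 4.54e-05) and BCL2L1 by -1.22 (SE 0.10, adjusted p = 6.85e-05). For each, both KMS18 libraries lay above both KMS28BM libraries. BCL2 differed by -0.40 (SE 0.12, edgeR adjusted p = 0.0206), and more between the controls than between the knockdown libraries. The log2 ratio of its scaled counts was -0.59 in the controls (95% Poisson interval -0.64 to -0.54). In the knockdown libraries it was -0.22 (-0.27 to -0.16). Among BH3-only genes, BBC3 differed by -1.002 (SE 0.14, edgeR adjusted p = 0.000755) and PMAIP1 by -0.72 (SE 0.15, adjusted p = 0.0046). PMAIP1 differed more between the controls, by -0.99 in scaled counts, than between the knockdown libraries, by -0.44. BAD was higher in KMS28BM by 0.49 (SE 0.13, edgeR adjusted p = 0.014). BAX was higher in KMS28BM by 0.63 (SE 0.13, edgeR adjusted p = 0.00537), and BAK1 differed by -0.59 (SE 0.11, adjusted p = 0.00347). BCL2L11 and BID were not called between the lines (edgeR adjusted p = 0.237 and 0.292).

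**Figure D4:**
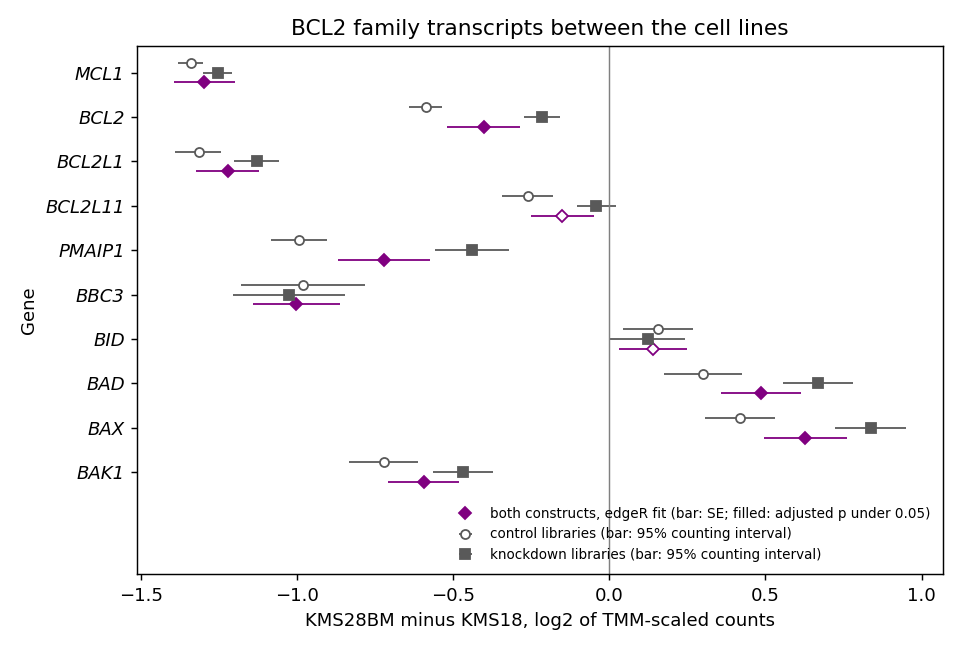
Log2 differences between the lines, KMS28BM minus KMS18, for the 10 family genes from edgeR (diamonds, bars are standard errors) and for the control and the knockdown libraries alone (bars are 95% counting intervals). MCL1 and BCL2L1 lie furthest below 0, at -1.30 and -1.22. BAX, BAD and BID lie above 0, and of these BID was not called.

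For each gene called under the knockdown, the genes with the most similar pattern over the 4 libraries were found among 7278 genes at 5 FPKM or more in every library. The measure was the root mean square difference of log2(FPKM + 1), centred for each gene. NPC2, which encodes a cholesterol-binding protein of the lysosome, was nearest to MCL1 (0.033), at 139, 102, 61.6 and 44.7 FPKM, with the KMS18 libraries first and each control before its knockdown. C6orf62 (0.043) and GOLM1 (0.056) followed. The nearest to BCL2L11 were FBRSL1 (0.034), DPM3 (0.037) and TNFAIP1 (0.037). FBRSL1 was at 19.6, 27.0, 15.1 and 29.02 FPKM, close to BCL2L11 in level as well. PMAIP1 had less close neighbours, EAF2 (0.096), ASNSD1 (0.111) and NUFIP2 (0.144), and EAF2 was at 36.1, 17.3, 18.3 and 14.6 FPKM. With 4 libraries such a likeness is a description of these libraries.

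A wider list of 63 apoptosis genes was read from the same fit, with 58 tested. BCL2L10, BCL2L14, BCL2L15, BOK and TP73 did not pass the filter on low counts. Under the knockdown 3 of the 58 rose and 4 fell, and the median log2 difference was -0.05. Of all genes, 3.57% rose and 5.25% fell.

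CASP2, a caspase, one of the proteases of apoptosis, was among the genes that fell. It was at 22.6 and 17.9 FPKM in KMS18, against 33.4 and 26.3 in KMS28BM (a log2 change of -0.42, SE 0.09, edgeR adjusted p = 0.0395). In both lines the knockdown library lay below its own control. CASP2 held CAGTCTA in a transcript, and BCAP31, BCL2L12, TNFRSF10B and STAT3 held neither short sequence.

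BCAP31, an endoplasmic reticulum protein cleaved by caspase-8, also fell. It was at 206 and 156 FPKM in KMS18 control and knockdown and at 120 and 92.4 in KMS28BM (a log2 change of -0.45, SE 0.09, edgeR adjusted p = 0.0341). By mean level over the 4 libraries the most abundant gene of its group was VDAC1, the channel of the outer mitochondrial membrane, although BCAP31 was higher in both KMS18 libraries. VDAC1 was at 136 and 135 FPKM in KMS18, against 212 and 201 in KMS28BM (edgeR adjusted p = 0.625).

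The 3 genes that rose came from separate groups. BCL2L12, a BCL2-like protein outside the core family, was at 15.6 and 25.3 FPKM in KMS18 control and knockdown and at 26.5 and 49.5 in KMS28BM (a log2 change of 0.73, SE 0.12, edgeR adjusted p = 0.0153). TNFRSF10B, the TRAIL receptor DR5, was at 4.65 and 7.4 FPKM in KMS18, against 4.51 and 9.04 in KMS28BM (a log2 change of 0.81, SE 0.13, edgeR adjusted p = 0.017). For TNFRSF10B both knockdown libraries lay above both controls. STAT3, a transcription factor downstream of interleukin-6 that is known to raise MCL1 and BCL2L1 transcription, was at 16.6 and 29.4 FPKM in KMS18, against 10.4 and 17.9 in KMS28BM (a log2 change of 0.75, SE 0.09, edgeR adjusted p = 0.00953).

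The genes of highest mean level in the remaining groups did not pass. BMF, a BH3-only protein linked to the cytoskeleton, was at 38.01 and 53.8 FPKM in KMS18 control and knockdown and at 38.6 and 41.5 in KMS28BM (edgeR adjusted p = 0.295). Its level in every library was above that of BCL2L11. BIRC5 (survivin), an inhibitor of apoptosis that acts in mitosis, was at 51.5 and 48.6 FPKM in KMS18, against 70.3 and 88.8 in KMS28BM (edgeR adjusted p = 0.933). FADD, the adaptor of death receptors, was at 14.4 and 14.2 FPKM in KMS18, against 33.6 and 29.7 in KMS28BM (edgeR adjusted p = 0.382). TPT1, a protein known to stabilise MCL1, was at 2035 and 2430 FPKM in KMS18, against 1533 and 1529 in KMS28BM (edgeR adjusted p = 0.834).

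The calls under the knockdown rest on 1 residual degree of freedom. With no filter on low counts, MCL1 and PMAIP1 missed the threshold (edgeR adjusted p = 0.0587 and 0.0622) with near-equal log2 differences, and BCL2L11 passed. Of the wider list, STAT3 passed in that setting, and CASP2, BCAP31, BCL2L12 and TNFRSF10B did not.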

How the data were processed

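RNA of 4 libraries was sequenced after TruSeq RNA version 2 preparation, per the labels' protocols, which keeps no strand. Each library has 1 deposited table in which the authors give per gene an expected count (an estimated count, not always whole), an FPKM and a length, per the file headers. STAR, Bowtie2, HISAT, GRCh37 and hg19 are listed in the submitters' processing notes without roles. The program that made the counts was not given in the sources used here. Rows that share a symbol were summed, from 23844 identifiers to 22187 genes.

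Expected counts were rounded and tested with edgeR 4.0.16 (R 4.3.3): TMM scaling, default filter (minimum count 10), cell line and construct as terms, adjustment over all 14870 genes. The same line supplies its control and knockdown, so libraries are paired by line. The fit left 1 residual degree of freedom (prior 5.85). Alternatives were median-of-ratios scaling, no filter, 5 CPM in 2 libraries, DESeq2 1.42.0, limma 3.58.1 on log2(FPKM + 1) or log2(FPKM + 0.1), no block and each line alone. Levels carry exact 95% Poisson intervals. Nothing says that libraries came from separate cultures beyond the line.

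The family genes, the wider list and the short sequences were chosen with earlier results of these data known. Named genes were the 10 family genes, wider-list genes past the threshold, the one of highest mean FPKM in each group, and the 3 genes most like each called family gene. Some results of the wider list are not reported here. FOXO3 was added because a searched motif is known for forkhead factors. Promoters came from RefSeq (GRCh38.p14) by symbol for 9 of the 10 genes, and positions from GENCODE 29 (GRCh38). The PMAIP1 promoter is shown only up to the first GENCODE exon.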

Additional observations from a re-analysis of the deposited data

Results flagged for a closer look

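BAX moved in opposite directions in the lines. The log2 ratio of scaled counts, knockdown minus control, was -0.222 in KMS18 (95% Poisson interval -0.349 to -0.095) and 0.196 in KMS28BM (0.098 to 0.293). Each line has 1 library per construct, so the difference between the lines was not tested, and the intervals cover counting error only. The listed length of BAX fell in both lines, from 1025 to 977 bases in KMS18 and from 1013 to 952 in KMS28BM.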

How the results depend on the processing

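The 3 family genes called under the knockdown kept their direction in every other fit and in each line alone. BCL2L11 passed in 6 of 6 other fits that kept the line block (adjusted p from 5.48e-05 to 0.0484). MCL1 passed in 5 of 6 (1.09e-05 to 0.0587) and PMAIP1 in 5 of 6 (0.000795 to 0.0622). With no filter on low counts, 1 family gene and 2 genes of the wider list passed in place of 3 and 7, and limma on log2(FPKM + 1) passed 4 of the wider list. Without the block, that is with the pairing by line dropped, edgeR called 0 of 10 family genes and 0 of 58 in the wider list. At an unadjusted p under 0.05 it called 1 and 2. DESeq2 with the block called 3 of 10 and 9 of 63. Between the lines, 4 in place of 8 family genes passed without the construct term as a block. The share of all genes called is given for the main fit only, at 8.82% under the knockdown and 62.9% between the lines. These other counts therefore cannot tell a loss in the family from a fit that calls few genes. Only 4 of 6 other fits called BCL2 between the lines (0.0175 to 0.0808). The protective share by scaled counts was 73.0%, 66.1%, 60.8% and 50.8%, and without MCL1 35.2%, 31.1%, 23.1% and 19.5%. BCL2L1 under the knockdown turned positive with limma (0.030 and 0.032). It ranged from -0.126 to 0.06 over the lines alone. BAX turned positive with median-of-ratios scaling (0.003), 5 CPM in 2 libraries (0.018), no block (0.032) and limma (0.135 and 0.137), and ranged from -0.222 to 0.196 over the lines alone. The cause was not tested. With 1 library per line and construct, the spread between cultures is unknown.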

Other observations

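The genes in this part were chosen after their values had been seen. The inhibitors of apoptosis, BIRC2 and BIRC3, which encode cIAP1 and cIAP2 and lie next to each other on chromosome 11 (102347211 to 102378670 and 102317450 to 102339403, GRCh38), were almost undetected in KMS18. BIRC2 had 2 and 1 counts in KMS18 control and knockdown and 540 and 503 in KMS28BM. BIRC3 had 2 and 1 counts in KMS18 and 980 and 1221 in KMS28BM. The ratio of scaled counts between the control libraries was 247 for BIRC2 (95% Poisson interval 67.9 to 2040) and 448 for BIRC3 (124 to 3700). The neighbouring gene TMEM123 (102396332 to 102470384) was at 97.6 and 90.4 FPKM in KMS18, against 123 and 102 in KMS28BM, with an edgeR adjusted p of 0.237 between the lines. These proteins are known to restrain the non-canonical NF-κB pathway.

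Of the BH3-only genes in the wider list, BIK, HRK and BNIP3 were at different levels in the lines. BMF and BNIP3L, also in that list, were not called between the lines. Of all genes, 62.9% were called between the lines. BIK was at 2.47 and 2.27 FPKM in KMS18 control and knockdown and at 0.03 and 0.20 in KMS28BM. HRK was at 0.03 and 0.09 FPKM in KMS18, against 1.92 and 2.27 in KMS28BM. BNIP3, a hypoxia-induced gene, was at 3.08 and 2.65 FPKM in KMS18, against 22.1 and 15.9 in KMS28BM.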
